A study of Mus musculus with 14 samples.

Results

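Lhx6, Sox6, Satb1, Maf, Mef2c, Dlx1, Dlx5 and Dlx6 are transcription factors of the lineage that produces parvalbumin (PV) interneurons. These 8 genes, chosen with earlier results of these data known, were taken by name from the 39017 genes of the count table. All 8 were among the 21298 genes left by a filter on low counts. Their levels were compared between hippocampal input RNA and RNA from PV neurons, and between PV neurons of mice that differed in their response to social stress.

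The RNA of PV neurons was obtained by TRAP (translating ribosome affinity purification), in which ribosomes carrying a tagged protein are pulled out of a tissue homogenate together with the RNA they translate. All mice, controls included, were young adult males that carried a Cre-dependent EGFP-L10a ribosomal tag and PV-Cre. The tag was therefore directed at PV-Cre cells of the dissected tissue in general, not at a single interneuron subtype. TRAP samples came from 4 non-defeated, 4 resilient and 3 susceptible mice, with the pair of hippocampi of 1 mouse in each sample, and total RNA of 3 homogenates from non-defeated mice, taken before purification, was the input. Resilient and susceptible mice had both gone through chronic social defeat stress (CSDS), repeated attacks by aggressor mice, and were separated afterwards by how much they approached or avoided a new aggressor, while non-defeated mice, housed in pairs, were not defeated. Samples are called by the letters of their labels (C for non-defeated, CI for input, R for resilient, S for susceptible) and their number.

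PV and somatostatin interneurons of the hippocampus arise in the medial ganglionic eminence of the embryonic brain. Dlx homeobox factors act early in GABAergic precursors, Lhx6 is switched on as these cells leave the cell cycle and is needed for their migration and subtype fate, and Sox6, Satb1, Maf and Mef2c act at later steps of migration, survival and maturation. Several of these factors stay on in adult interneurons.

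Levels are given as CPM, read counts scaled to a common library size after TMM scaling, edgeR's correction for differences in RNA composition between libraries. Libraries held between 64110214 counts in input and 94726962 in TRAP. A gene was called at an adjusted p under 0.05 in edgeR's quasi-likelihood test, fitted to all genes and all 14 libraries and adjusted by the Benjamini-Hochberg method. The PV marker Pvalb had 1464 ± 134 CPM in TRAP and 25.4 ± 6.03 in input (SD, n = 4 and 3), a log2 fold change of 5.85. All 10 PV neuron markers were called higher in TRAP, and all 7 glutamatergic neuron markers and all 6 oligodendrocyte markers were called lower. So were 4 of 5 astrocyte markers and 6 of 7 microglia and macrophage markers. Of 5 oligodendrocyte precursor markers, 3 were lower and 1 was higher. Of 6 endothelial and mural markers, 1 was higher, 0 were lower and 5 were not called. The 10 markers of other interneurons were split, with 2 higher (Sst and Npy) and 6 lower (Vip among them, at -2.29). Summed levels of 8 thalamus markers, genes of a region next to the hippocampus, ranged from 156 to 913 CPM among TRAP samples and from 119 to 461 in input. The sums were above 250 CPM in C9, C11, R7, S10 and the input CI14. Between non-defeated TRAP and input, 2 of the 8 were called higher, 0 lower and 6 neither. In this bulk RNA, fewer cells of a type and less RNA per cell cannot be told apart.

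Promoter sequence is shown for Lhx6 and Mef2c, the factors with the highest levels per length in TRAP and in input. RefSeq promoter windows of GRCm38.p6, the genome build of the counts (mm10), were at hand for 5 of the 8 factors, with 18 annotated starts. The 250 bases before the first start of Lhx6 and of Mef2c, read 5′ to 3′ on the strand of the gene, are printed in lower case, with capitals for TAATT, the core recognised by many homeodomain factors, and for GGGCGG, the GC box bound by Sp factors, both searched on either strand (AATTA and CCGCCC on the other).
Lhx6 (chr2:36105409-36105658, minus strand): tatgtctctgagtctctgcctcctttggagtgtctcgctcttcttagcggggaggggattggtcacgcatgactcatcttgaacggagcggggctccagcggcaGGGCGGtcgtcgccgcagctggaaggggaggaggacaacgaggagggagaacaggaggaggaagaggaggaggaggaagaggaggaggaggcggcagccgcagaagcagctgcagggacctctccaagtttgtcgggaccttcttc
Mef2c (chr13:83503784-83504033, plus strand): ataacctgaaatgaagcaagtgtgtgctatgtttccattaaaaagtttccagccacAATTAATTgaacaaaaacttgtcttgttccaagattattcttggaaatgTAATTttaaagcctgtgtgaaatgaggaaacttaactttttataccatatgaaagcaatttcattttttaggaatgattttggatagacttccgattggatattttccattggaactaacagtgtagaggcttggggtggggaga
The Lhx6 window was 61.6% G or C and held 1 GC box and no TAATT, whereas the Mef2c window was 33.6% G or C and held TAATT 3 times, 2 of them overlapping, and no GC box. These differences do not extend to all starts. The third Lhx6 window was 46.0% G or C with 1 TAATT and no GC box, and the second Mef2c window was 44.8% G or C with 3 TAATT and 1 GC box. The first Satb1 window, at 58.0% G or C, held neither. The median window of the mouse genome was 52.4% G or C. Over all starts, 6 of the 18 windows, from 4 of the 5 factors, held TAATT, against 25.0% of 32841 mouse promoter windows of the same length. The GC box was in 5 of the 18, against 32.7% of all windows.

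All 8 factors were higher in TRAP RNA of non-defeated mice than in input. In each, every TRAP sample lay above every input sample, which 29.5% of all genes tested showed, and each was called, against 27.4% of genes called higher in this comparison. The exact 2-sided permutation test over samples gave p = 0.0286 for each factor, the smallest that 4 against 3 samples can give. Fold changes ranged from 2.72 for Satb1 to 6.76 for Dlx5. The median log2 fold change of the 8 factors was 2.25, and that of all genes tested was -0.041. Because the factors were chosen with earlier results known, the shares over all genes stand beside them as a description only.

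**Figure D1:**
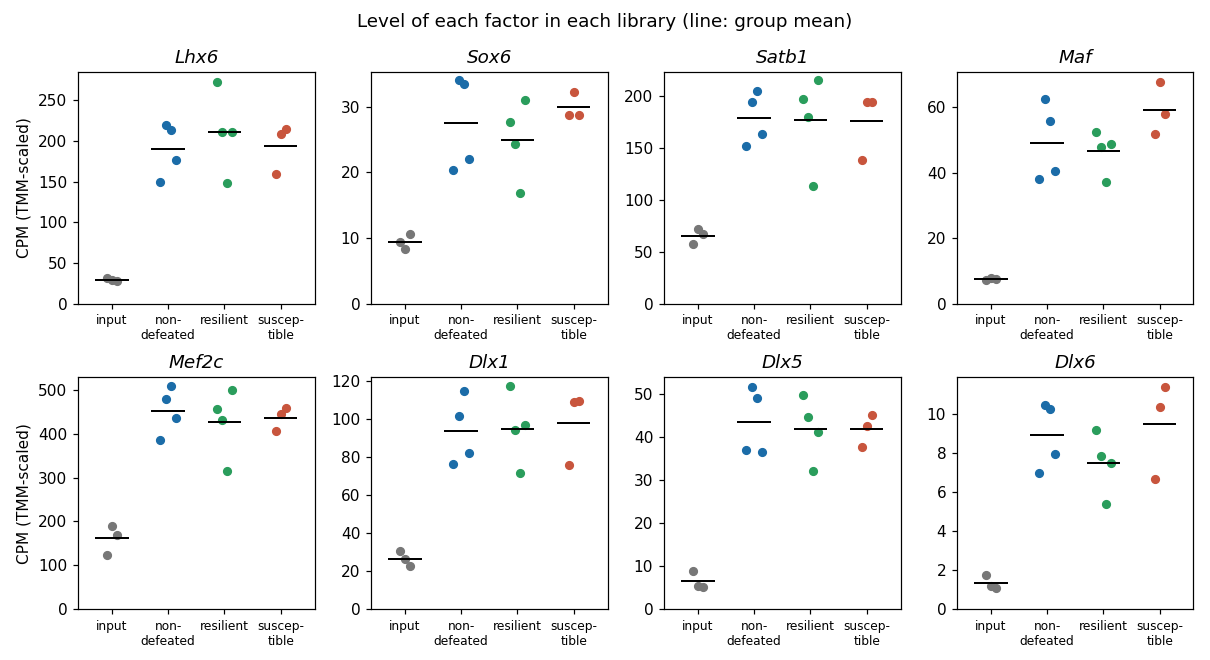
Level of each factor in CPM (TMM-scaled, linear axis from 0) in each of the 14 libraries, by group, with a black line at the group mean. In all 8 panels the 3 input samples lie below the 11 TRAP samples, and the 3 TRAP groups overlap.

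The Dlx genes come earliest in the lineage. Dlx1 (ENSMUSG00000041911; chr2:71528113-71533981, plus strand), a homeobox factor kept on in many adult interneurons, had 30.6, 26.4 and 22.6 CPM in CI12, CI13 and CI14. In the non-defeated TRAP samples C1, C6, C9 and C11 it had 102, 115, 82.2 and 76.4 CPM. The TRAP samples were all above the input samples, and C1 and C6 were higher than C9 and C11. The log2 fold change was 1.82 (standard error 0.20), or 3.54-fold (95% interval 2.64 to 4.73), with an adjusted p of 2.64e-06 in edgeR's quasi-likelihood test. Among defeated mice, resilient mice had 118, 94.4, 71.6 and 97.0 CPM and susceptible mice 109, 109.8 and 75.7 CPM (in the order R3, R5, R7, R8 and S2, S4, S10 here and below). R7 and S10 were the lowest of their groups, and the 3 TRAP groups overlapped.

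Dlx5 (ENSMUSG00000029755; chr6:6877805-6882085, minus strand) and Dlx6 lie next to each other on chromosome 6, with their ends facing, and both act in GABAergic differentiation. Dlx5 had 8.76, 5.35 and 5.16 CPM in the input samples and 51.6, 49.0, 36.5 and 36.8 CPM in the non-defeated TRAP samples. C1 and C6 again stood above C9 and C11. Its log2 fold change was 2.76 (standard error 0.22), or 6.76-fold (95% interval 4.91 to 9.30), with an adjusted p of 1.29e-07 in edgeR's quasi-likelihood test. After defeat, resilient mice had 49.8, 44.5, 32.1 and 41.2 CPM and susceptible mice 42.6, 45.0 and 37.6 CPM, with R7 and S10 lowest in their groups.

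Dlx6 (ENSMUSG00000029754; chr6:6863334-6868568, plus strand) was the least counted of the 8, with 82 to 147 reads in an input library and 445 to 949 in a TRAP library. It had 1.72, 1.16 and 1.07 CPM in input and 10.5, 10.3, 7.95 and 6.96 CPM in non-defeated TRAP. Its order over the 4 TRAP samples was that of Lhx6, described next, with C1 highest and C11 lowest. The log2 fold change was 2.76 (standard error 0.26), or 6.75-fold (95% interval 4.58 to 9.97), with an adjusted p of 8.21e-07 in edgeR's quasi-likelihood test. Among defeated mice, resilient mice had 9.21, 7.83, 5.39 and 7.48 CPM and susceptible mice 10.4, 11.4 and 6.69 CPM, and the ranges of the 3 groups overlapped.

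Lhx6 (ENSMUSG00000026890; chr2:36081953-36105408, minus strand), the LIM-homeobox factor that marks cells from the medial ganglionic eminence, had 31.8, 29.1 and 27.9 CPM in input. In non-defeated TRAP it had 219, 214, 177 and 149.9 CPM. The gap between the highest input and the lowest TRAP sample was wide, and C11 was the lowest TRAP sample. The log2 fold change was 2.68 (standard error 0.20), or 6.42-fold (95% interval 4.79 to 8.59), with an adjusted p of 7.28e-08 in edgeR's quasi-likelihood test, and 1.34% of the genes tested had a larger one. After defeat, resilient mice had 273, 211, 148 and 211 CPM and susceptible mice 208, 215 and 159 CPM. R3 was the highest and R7 the lowest of all 11 TRAP samples, so the resilient group alone spanned the whole range.

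Maf (ENSMUSG00000055435; chr8:115682942-115707794, minus strand), a bZIP factor of interneurons from the medial ganglionic eminence, had 7.19, 7.91 and 7.64 CPM in input and 62.6, 55.7, 40.5 and 38.0 CPM in non-defeated TRAP. Input samples were close together, whereas C1 and C6 stood above C9 and C11 in TRAP. The log2 fold change was 2.70 (standard error 0.19), or 6.49-fold (95% interval 4.93 to 8.55), with an adjusted p of 4.01e-08 in edgeR's quasi-likelihood test. Among defeated mice, resilient mice had 52.4, 47.8, 37.2 and 48.9 CPM and susceptible mice 67.8, 58.1 and 51.8 CPM. The highest TRAP value was that of S2 and the lowest that of R7.

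Sox6 (ENSMUSG00000051910; chr7:115470872-116038796, minus strand), an SRY-box factor needed for the positioning and maturation of PV and somatostatin interneurons, had 9.38, 8.28 and 10.6 CPM in input and 34.0, 33.5, 22.1 and 20.3 CPM in non-defeated TRAP. The TRAP samples formed a high pair, C1 and C6, and a low pair, C9 and C11, both above input. The log2 fold change was 1.54 (standard error 0.22), or 2.92-fold (95% interval 2.11 to 4.03), with an adjusted p of 3.53e-05 in edgeR's quasi-likelihood test. In the defeated groups, resilient mice had 27.6, 24.3, 16.8 and 31.0 CPM and susceptible mice 32.3, 28.8 and 28.7 CPM, and R7 was again the lowest of all TRAP samples.

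Satb1 (ENSMUSG00000023927; chr17:51736187-51833290, minus strand), a chromatin organiser that responds to activity in maturing interneurons, had 57.4, 72.1 and 67.4 CPM in input and 194, 205, 163 and 151 CPM in non-defeated TRAP. Its log2 fold change, 1.44 (standard error 0.20), or 2.72-fold (95% interval 2.03 to 3.64), with an adjusted p of 2.53e-05 in edgeR's quasi-likelihood test, was the smallest of the 8. In the defeated groups, resilient mice had 196, 179.8, 113 and 215 CPM and susceptible mice 194, 194 and 139 CPM. R7 and S10 were the lowest, and the other susceptible samples were nearly equal.

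Mef2c (ENSMUSG00000005583; chr13:83504034-83667080, plus strand), a MADS-box factor linked to PV interneuron development that glutamatergic neurons of the forebrain also use, was the most counted, with 10532 to 47025 reads in a library. It had 124, 190.2 and 169 CPM in input and 479, 509.9, 437 and 386 CPM in non-defeated TRAP. CI12 was the lowest of all, and the groups were far apart. The log2 fold change was 1.49 (standard error 0.16), or 2.81-fold (95% interval 2.20 to 3.59), with an adjusted p of 3.41e-06 in edgeR's quasi-likelihood test. In the stressed groups, resilient mice had 457, 431, 316 and 501 CPM and susceptible mice 445, 458 and 406 CPM, and R7 and R8 were the extremes of the resilient group.

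Per length of exon sequence (RPKM, CPM per kilobase of merged exons), the order of the factors differed between input and TRAP. In input, Mef2c had the highest level, 10.2 ± 2.17 RPKM (SD, n = 3), followed by Lhx6 at 6.16 ± 0.412 and Dlx1 at 4.92 ± 0.749. In non-defeated TRAP, Lhx6 led at 39.5 ± 6.78 RPKM (SD, n = 4), above Mef2c at 28.8 ± 3.41. Lhx6 was above Mef2c within each of the 4 samples, but the ranges of the levels overlapped, as they did for Dlx5 at 19.2 ± 3.50 and Dlx1 at 17.4 ± 3.31. Satb1 (9.38 ± 1.33), Maf (5.97 ± 1.44), Dlx6 (3.76 ± 0.734) and Sox6 (1.85 ± 0.490) followed without overlap between neighbours. In input, the neighbours Satb1 and Dlx5, and Sox6 and Dlx6, overlapped. The same order by group mean held in resilient and susceptible TRAP, but neighbours overlapped more often there. Dlx5 and Dlx1, and Satb1 and Maf, overlapped in both, and Lhx6 and Mef2c, and Mef2c and Dlx5, overlapped in resilient TRAP. In susceptible TRAP, Dlx5 was above Dlx1 in 1 of 3 samples. At its TRAP level, Lhx6 was above 90.4% of the genes tested, compared with 65.4% in input, and Dlx5 above 83.1%, compared with 50.4%.

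**Figure D2:**
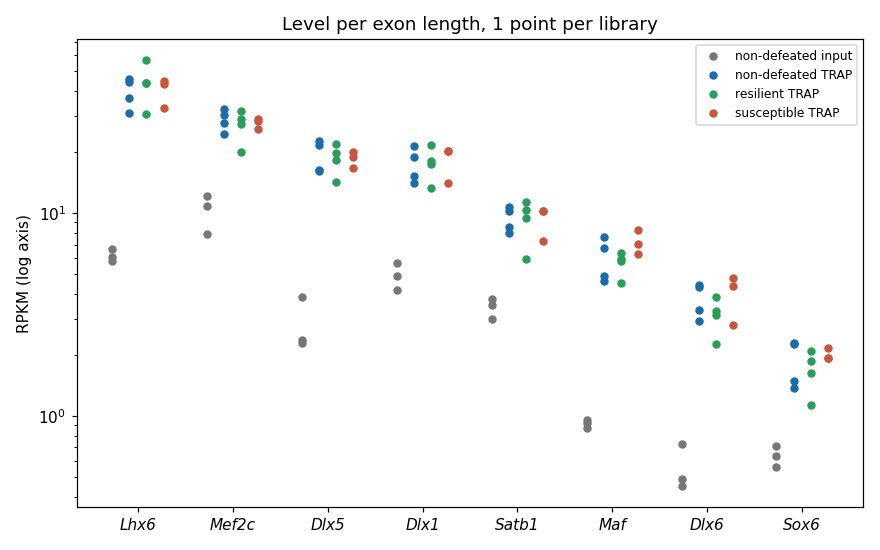
RPKM of each factor (log axis), ordered by the mean in non-defeated TRAP, with 1 point per library and groups side by side. Lhx6 is first at 39.5 RPKM and Sox6 last at 1.85 in non-defeated TRAP, while Mef2c leads in input at 10.2.

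The fold changes fell into a larger and a smaller set. Log2 ratios of a pair of factors were formed within each library, which needs no scaling between libraries, an analysis chosen after the data were seen. Of the 28 pairs, 16 gave the smallest p that the exact permutation test allows, 0.0286, and an adjusted p of 0.05 over the 28 pairs, which is at the threshold and not under it. Each of these 16 pairs joined one of Lhx6, Maf, Dlx5 and Dlx6, with fold changes from 6.42 to 6.76, to one of Sox6, Satb1, Mef2c and Dlx1, with fold changes from 2.72 to 3.54. The widest of these was Satb1 over Dlx5, which in TRAP was 0.395 of its input value. The other 12 pairs, all within one set, differed by at most 0.37 on the log2 scale. Lhx6 over Maf differed by 0.0020 on the log2 scale (p = 0.971, exact permutation test), and Dlx5 over Dlx6 by 1.02-fold (p = 0.629, exact permutation test). Across the sets, the ratio of Dlx1 to Dlx5 in TRAP was 0.512 of its input value. Against Gad1, the enzyme that makes GABA, which was 4.77-fold higher in TRAP, Satb1 was at 0.573, Mef2c at 0.601 and Sox6 at 0.602 of the input ratio. Lhx6, Maf, Dlx5 and Dlx6 were at 1.34 to 1.45 times that ratio, and Dlx1 was between, at 0.743. The ratios in TRAP and input samples overlapped for Dlx1, Lhx6, Maf, Dlx5 and Dlx6. None of the 8 ratios to Gad1 passed after adjustment (smallest adjusted p = 0.229, exact permutation test over samples).

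Family relatives did not all move with the factors. Of 13 relatives, 5 were called higher, 4 lower and 4 neither, and their median log2 fold change was -0.085. Over all 21298 genes tested, 5832 (27.4%) were called higher and 5887 lower, so the counts of relatives are given as a description only. In the Dlx family, Dlx2, the partner of Dlx1 in early precursors, had 42.7 ± 6.58 CPM in TRAP and 9.33 ± 3.13 in input, a rise of 2.19 on the log2 scale. Dlx4 (2.49) and Dlx3 (2.28) were called higher as well, at levels of 2.40 CPM or less in TRAP, so the Dlx genes tested were all higher. In the Maf family, Mafa rose by 1.01, at a mean of 2.11 CPM in TRAP, and Nrl was at 0.292 CPM or less in both groups and was not called.

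The other families diverged. Mef2a, with 131 ± 14.2 CPM in TRAP and 183 ± 2.76 in input, and Mef2d, with 133 ± 6.59 CPM in TRAP and 206 ± 18.2 in input, both broadly used in neurons, were called lower (-0.48 and -0.63), while Mef2c was higher. Within libraries, Mef2c over Mef2d in TRAP was 4.40 times its input value. Sox13 fell by 1.27, and Sox5, the closest relative of Sox6, had 22.8 ± 2.34 CPM in TRAP and 26.7 ± 3.41 in input and was not called (-0.23, adjusted p = 0.113 in edgeR). Lhx8, which acts in cholinergic neurons of the same origin, varied too widely to read, at 1.48 ± 2.04 CPM in TRAP and 1.56 ± 1.84 in input, and Mef2b was under 0.4 CPM. Of 19 ratios of a factor to a relative, 9 gave the smallest p of the exact permutation test, and their adjusted p was 0.0603, which did not pass.

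**Figure D3:**
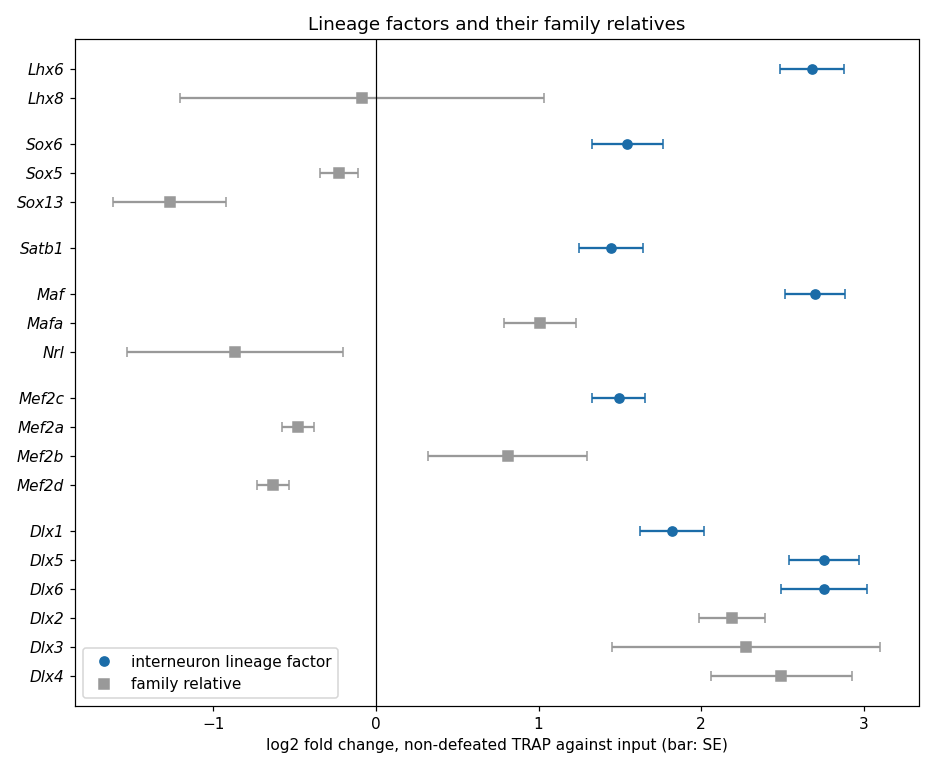
Log2 fold change between non-defeated TRAP and input for the 8 factors (circles) and 11 family relatives (squares), grouped by family, with bars for the standard error. All circles lie between 1.44 and 2.76, whereas Sox5, Sox13, Mef2a and Mef2d lie below 0.

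Further factors of the GABAergic lineage, a list of 21 that includes Dlx2 and Lhx8, were split, with 8 called higher, 8 lower and 5 neither (median log2 fold change -0.085). Among those that rose was Gsx2, an early precursor gene at only 2.57 CPM in TRAP (2.95). The largest falls were those of St18 (-1.86), Etv1 (-1.75) and Prox1 (-1.69). Prox1 marks interneurons of the caudal eminence and also the granule cells of the dentate gyrus. All 17 factors of the glutamatergic lineage, a list that also holds Prox1 and Mef2d, were called lower, with a median of -1.60. Over all 21298 genes tested, 5887 were called lower and 5832 higher. The largest falls among the 17 glutamatergic factors were those of Neurod6 (-2.47), Bhlhe22 (-2.46) and Neurod2 (-2.39), factors of excitatory forebrain neurons.

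Of 13 genes known to lie downstream of these factors, 8 were called higher, 2 lower and 3 neither (median 1.61). Over all genes tested, 27.4% were called higher. Pvalb, by whose expression the tagged cells were selected, led (5.85), followed by Slc32a1, the vesicular GABA transporter (2.86). Pvalb, Slc32a1 and other genes of this list are also PV neuron markers, so the count of 8 partly repeats the result for those markers. The neuropilins Nrp1 and Nrp2, guidance receptors of migrating interneurons, were called lower (-1.08 and -1.13). The 3 that were not called, named after their values were seen, were the chemokine receptors Cxcr4 and Ackr3 and the homeobox gene Shox2. The marker sums beside this comparison moved strongly. The 10 PV neuron markers summed to 4139 to 4447 CPM in non-defeated TRAP and 537 to 643 in input, and the 7 glutamatergic neuron markers to 627 to 837 and 1802 to 2161. Their part in each factor's change was not tested.

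Some annotated genes share bases with the factors, and the library kit does not keep the strand, so reads on shared bases cannot be told apart. Dlx1as, on the other strand of Dlx1, shares 335 bases of exon with it, and its own count rose alongside (log2 fold change 1.95). Gm15655 shares 440 bases with Maf and rose by 2.45, at 2.04 CPM in TRAP. Dlx6os2 shares 104 bases with Dlx6 and rose by 3.25, at 1.25 CPM, while Dlx6os1, which shares none, had 22.8 CPM in input and 64.5 in TRAP. Gm27953 lies within Lhx6 on the same strand, shares 104 bases and rose by 2.69, at 2.99 CPM. None of these was called in a stress comparison.

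The comparisons between stress groups addressed whether the factors differ in PV neurons after CSDS and with the behavioral outcome. No factor was called in any of the 3, whether by edgeR's quasi-likelihood test, its likelihood ratio test or DESeq2. None of the 8 passed an unadjusted p under 0.05 in edgeR's quasi-likelihood test, and the 3 TRAP groups overlapped for each factor. The comparisons share groups, so their values are given side by side. Over all genes, 0% were called between resilient and non-defeated mice (4.38% at an unadjusted p under 0.05), 0.0376% between susceptible and non-defeated mice (13.3% unadjusted) and 1.89% between susceptible and resilient mice (20.9% unadjusted). As counts, edgeR called 0, 8 and 403 genes in these comparisons and DESeq2 0, 113 and 1004.

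Maf was nearest to the threshold. Its mean was 49.2 ± 11.9 CPM in non-defeated (SD, n = 4), 46.6 ± 6.54 in resilient (SD, n = 4) and 59.2 ± 8.06 in susceptible mice (SD, n = 3). Susceptible mice had 1.27-fold the level of resilient mice (95% interval 0.995 to 1.63, adjusted p = 0.247 in edgeR, exact permutation p = 0.0857). S2 and S4 were above every resilient sample, and S10 was not. The difference of means was 0.33 on the log2 scale among samples numbered 1 to 6 and 0.28 among those numbered 7 to 11, of which 1 was susceptible. The same split gave 0.36 and 0.074 for Dlx6 and 0.23 and 0.33 for Sox6, and values of opposite sign for Satb1 (0.048 and -0.17), Dlx1 (0.054 and -0.14) and Dlx5 (-0.11 and 0.050). Dlx6 in susceptible mice was also at 1.27-fold its resilient level, with a wider interval of 0.901 to 1.79 (adjusted p = 0.423 in edgeR), and S10 lay inside the resilient range. Sox6 was at 1.20-fold (0.884 to 1.63, adjusted p = 0.502 in edgeR). The other 5 factors differed by -0.12 to 0.045 on the log2 scale.

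Between resilient and non-defeated mice, log2 fold changes ran from -0.26 for Dlx6 to 0.15 for Lhx6, and the adjusted p was 1 for each factor in edgeR. The value for Lhx6 was 1.11-fold, with an interval of 0.868 to 1.41. Between susceptible and non-defeated mice they ran from -0.058 for Dlx5 to 0.27 for Maf, with adjusted p between 0.494 and 0.969 in edgeR. Mef2c was held most tightly, with 95% intervals of 0.758- to 1.17-fold in resilient and 0.763- to 1.22-fold in susceptible mice against non-defeated mice. Over the 24 values, the intervals reached from 0.609- to 1.79-fold, both for Dlx6. Each interval is for 1 factor in 1 comparison, without adjustment, and differences within it remain compatible with these data.

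**Figure D4:**
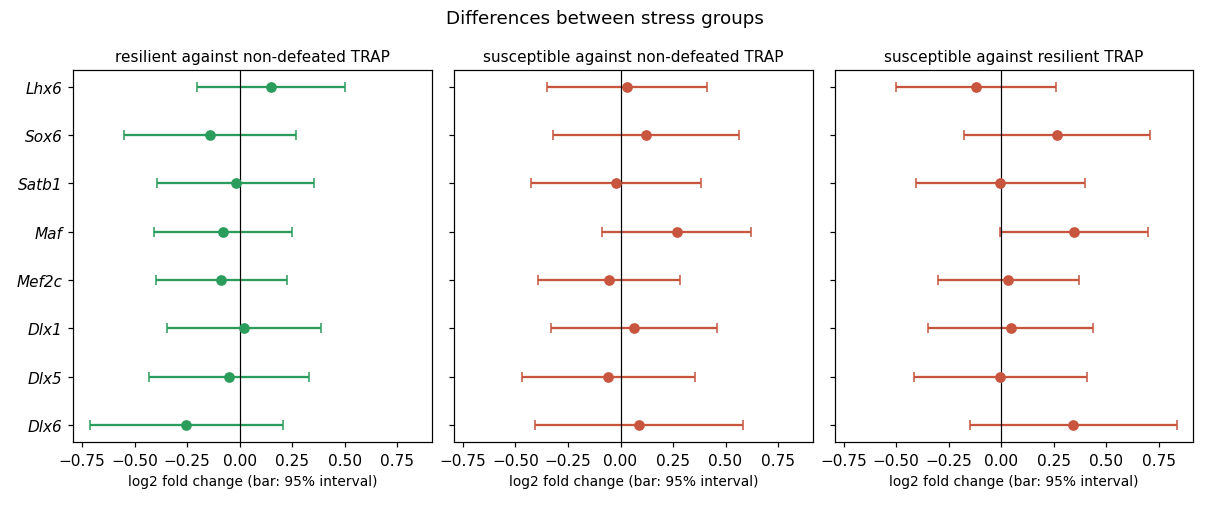
Log2 fold change of each factor in the 3 comparisons between stress groups, with bars for the 95% interval. Green is resilient against non-defeated and red has susceptible as the first group, and all 24 intervals cross 0, that of Maf between susceptible and resilient mice only just (from -0.0068).

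Relative to Gad1 within each library, an analysis chosen after the data were seen, the level of Maf in susceptible mice was 1.59-fold and that of Dlx6 1.57-fold the resilient level (p = 0.0286 each, the smallest an exact permutation test can give here). Neither passed over the 24 ratios tested (adjusted p = 0.343). Gad1 itself was at 0.812 of its resilient level in susceptible mice (adjusted p = 0.260 in edgeR). Among the lists of relatives, GABAergic and glutamatergic factors and downstream genes, no gene was called in a stress comparison. The smallest unadjusted p in these lists were those of Emx2, Nr2f1 and Neurog2. Emx2, a forebrain patterning factor, had a log2 fold change of 0.67 between susceptible and non-defeated mice (adjusted p = 0.221 in edgeR). Between susceptible and resilient mice, Nr2f1, an orphan nuclear receptor, had 0.34 (adjusted p = 0.118 in edgeR). Neurog2, a proneural factor, had 1.39 in that comparison (adjusted p = 0.143 in edgeR). Its level was near the floor, at 0.175 CPM in susceptible and 0.0657 in resilient mice. The neuropeptide genes Sst and Npy, downstream of Lhx6 and its partners, had log2 fold changes of 0.68 and 0.65 between susceptible and non-defeated mice, and neither passed (adjusted p = 0.365 and 0.364 in edgeR).

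The factors varied together from one TRAP sample to the next. As deviations from the mean of the sample's own group on the log2 scale, all 8 were below in C9, C11, R7 and S10, and all 8 were above in C1, C6, R3 and S2. R5 and R8 had 1 factor below and S4 had 2. The mean over the 8 was -0.44 in R7, -0.29 in C11, -0.24 in S10 and -0.17 in C9, and reached 0.25 in R3. Over the 11 TRAP samples, which share a library for every gene, the correlation of log2 CPM between 2 factors was between 0.66 and 0.95, with a median of 0.80 over the 28 pairs. With group means removed, the median was 0.86. The same values were not computed for other sets of genes, so the shared variation is not shown to be particular to these factors. Deviations average to 0 within a group, so a low sample goes with higher values in the others.

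The 4 low samples were the TRAP samples with the highest summed thalamus markers, with 913 CPM in R7, 559 in C9, 440 in C11 and 277 in S10, against 156 to 195 in the other 7. Pvalb was the lowest of its group in C9, at 1265 CPM against 1507 to 1548 in the other non-defeated samples, and in S10, at 1241 against 1443 and 1600. It was within the range of its group in C11, at 1538, and in R7, at 1304 against 1208 to 1332 in the other resilient samples. Summed markers of other interneurons were also lowest of their group in these samples. They were at 542 CPM in C11 and 567 in C9, against 629 in C6 and 729 in C1. R7 had 529 CPM, with 567 in R8 as the next, and S10 had 618, against 978 in S2 and 979 in S4. Summed PV neuron markers were lowest of their group in S10 (3388 CPM) but not in C9, C11 or R7. The 4 samples also carry numbers from 7 to 11, and so does R8, which was not low. What the numbers stand for is not given in the sources used here. The part of thalamus markers, of Pvalb, of other interneurons' markers or of sample number in the shared variation was not tested. These 4 samples and CI14 were left out in an alternative added after the data were seen. It kept C1, C6, R3, R5, R8, S2 and S4 and the inputs CI12 and CI13. All 8 factors were called higher in TRAP than in input, by 1.64 (Satb1) to 2.98 (Maf) on the log2 scale. C9 and C11 were the lowest non-defeated TRAP samples for every factor, so leaving them out could only raise the TRAP mean. None of the 8 was called between stress groups, with fewer samples in each group.

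**Figure D5:**
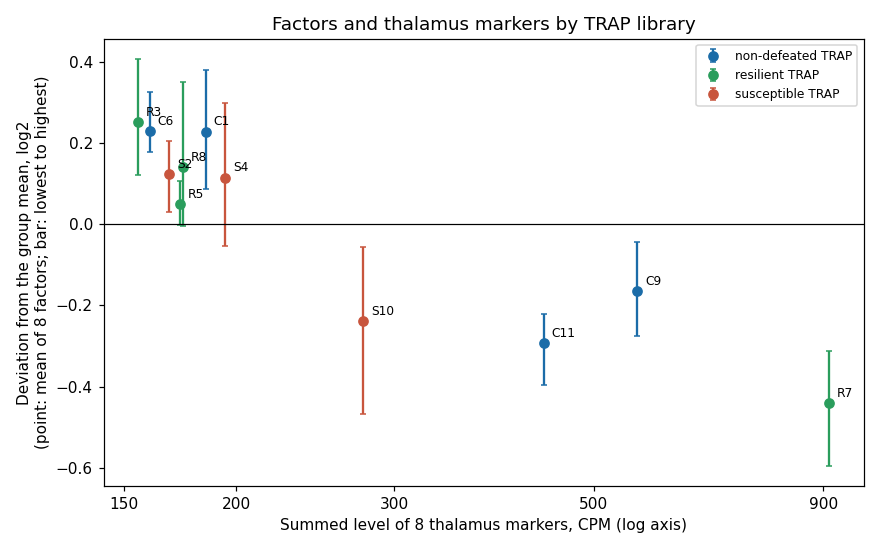
Mean log2 deviation of the 8 factors from the mean of the sample's group (points, bars from the lowest to the highest factor) against the summed CPM of 8 thalamus markers (log axis) in the 11 TRAP samples. The 4 samples above 250 CPM lie below 0 with every factor, and the other 7 samples have means above 0.

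For each factor, the pair of genes with the closest pattern over the 11 TRAP samples was sought among 15726 genes with a mean of at least 1 CPM, by Pearson correlation of log2 CPM. Satb1 and Mef2c were nearest to each other (r = 0.95), and Erbb4, the neuregulin receptor of interneurons, came next for Satb1 (r = 0.94). D10Jhu81e came next for Mef2c (r = 0.92). Dlx1 was nearest to Dlx1as (r = 0.98), with which it shares exon bases, and then to BC029722 (r = 0.98). Lhx6 was nearest to Rxfp3, a relaxin-family peptide receptor (r = 0.96), and Sh3rf3 (r = 0.95). Sox6 was nearest to Tox3 and Rn7s1 (r = 0.96 each). Maf was nearest to Pdap1 (r = 0.98) and Shtn1 (r = 0.97), Dlx5 to Plcxd3 (r = 0.98) and Plekho1 (r = 0.93), and Dlx6 to Eef1e1 and Eny2 (r = 0.95 each). These are the highest of many values over 11 samples that share their variation, and are given as a description.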

How the data were processed

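RNA from TRAP and input samples was reverse transcribed with SMART-Seq v4, made into Nextera XT libraries, which do not keep the strand, and sequenced as single reads. The authors deposited raw counts per gene. Per the labels' processing notes, reads were aligned to mm10 with STAR (2.5.3a) and counted with HTSeq, whose settings are not given in the sources used here. Gene IDs were matched to GENCODE symbols of GRCm38 for 37693 of 39017 genes, and the rest held 0.824% of counts and stayed out of the tests. Counts of 21298 genes kept by filterByExpr were scaled by TMM and fitted with edgeR 4.0.16 (R 4.3.3, quasi-likelihood test, 1 model of 14 libraries, Benjamini-Hochberg over all genes tested), a procedure tested on simulated data. Log2 CPM used a prior count of 2. DESeq2 1.42.0, a likelihood ratio test, RLE scaling, other filters, a GC offset, covariates and left-out libraries were alternatives.

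Groups came from the labels. Each TRAP sample is 1 mouse, while nothing says that the inputs came from separate mice, so p-values measure only the spread between these samples. Library totals were 64110214 to 80063224 counts in input, 72098582 to 94726962 in non-defeated, 75325264 to 87316567 in resilient and 73348628 to 77566993 in susceptible TRAP samples. The 8 factors and all gene lists were chosen with earlier results of these data known. The factors are given in every sample. From each list the text names at most the 3 largest called changes in each direction between TRAP and input, the smallest p-values between stress groups, the first 2 genes of a marker list, the 2 genes nearest to each factor and overlapping genes. Other family relatives are named as well, and some genes of the lists are counted but not reported here.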

Additional observations from a re-analysis of the deposited data

How the results depend on the processing

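Of 120 alternative values between TRAP and input, all kept their direction and stayed called, with log2 fold changes from 1.33 to 3.05 and adjusted p up to 0.000455 (edgeR or DESeq2). The number of factors called stayed at 8, and at 0 in each stress comparison, under every alternative run, and the smallest adjusted p there was 0.0967 (edgeR, Maf, susceptible against resilient, without the samples high in thalamus markers). Over all genes, DESeq2 called 113 between susceptible and non-defeated mice, where edgeR called 8, and 1004 between susceptible and resilient mice, where edgeR called 403. No paired analysis was possible because the sample numbers are not shared between groups. With 3 or 4 mice a group, the direction of most stress differences was not fixed, and the sign changes listed here are of values that were never called. Their cause was not tested.

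The difference of resilient from non-defeated mice turned to -0.015 for Dlx1 with a GC offset, to -0.044 for Dlx1 with sample number as a covariate and to -0.082 for Dlx1 without the samples high in thalamus markers. With the ratio of other cells' markers to Pvalb as a covariate it turned to 0.0037 for Sox6, 0.11 for Satb1, 0.047 for Maf and 0.063 for Dlx5. In susceptible mice that covariate gave 0.070 for Satb1, 0.0066 for Mef2c and 0.033 for Dlx5, sample number gave -0.058 for Lhx6, -0.034 for Dlx1 and -0.034 for Dlx6, and leaving out the samples high in thalamus markers gave -0.035 for Lhx6 and -0.15 for Sox6. Between susceptible and resilient mice, RLE scaling gave 0.0091 for Satb1 and 0.0056 for Dlx5, a minimum of 10 counts gave 0.00068 for Satb1, the GC offset gave 0.053 for Dlx5, and leaving out the samples high in thalamus markers gave -0.031 for Mef2c.

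With samples numbered 1 to 6 and 7 to 11 taken separately, 12 of 48 differences of mean log2 CPM had the opposite sign to that over all samples. Between resilient and non-defeated mice these were Dlx1 at -0.040 (1 to 6), and Sox6 at 0.11 and Maf at 0.12 (7 to 11). Between susceptible and non-defeated mice they were Lhx6 at -0.034 and Sox6 at -0.15 (1 to 6), and Lhx6 at -0.035, Dlx1 at -0.065, Dlx5 at 0.038 and Dlx6 at -0.15 (7 to 11). Between susceptible and resilient mice they were Dlx5 at -0.11 (1 to 6), and Satb1 at -0.17 and Dlx1 at -0.14 (7 to 11).

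Leaving out 1 library at a time, the log2 fold change between resilient and non-defeated mice ranged from -0.0016 to 0.28 for Lhx6, -0.27 to 0.0068 for Sox6, -0.13 to 0.14 for Satb1, -0.19 to 0.057 for Maf, -0.17 to 0.031 for Mef2c, -0.10 to 0.13 for Dlx1 and -0.15 to 0.056 for Dlx5. Between susceptible and non-defeated mice it ranged from -0.068 to 0.15 for Lhx6, -0.10 to 0.12 for Satb1, -0.12 to 0.0082 for Mef2c, -0.025 to 0.22 for Dlx1, -0.13 to 0.034 for Dlx5 and -0.065 to 0.29 for Dlx6. Between susceptible and resilient mice it ranged from -0.25 to 0.031 for Lhx6, -0.17 to 0.14 for Satb1, -0.084 to 0.12 for Mef2c, -0.069 to 0.20 for Dlx1 and -0.11 to 0.088 for Dlx5.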
